A study of Mus musculus with 14 samples.

Results

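Oxidative phosphorylation is the set of reactions by which mitochondria use electrons from food to make ATP. In the count table of mouse colon epithelium, 105 of 37680 genes were taken as its genes, because their symbols name subunits of the respiratory complexes I to IV or of the ATP synthase (complex V): symbols starting with mt-Nd, mt-Co, mt-Atp or mt-Cytb, Nduf followed by a, b, c, s or v, Uqcr, Cox4 to Cox8 or Atp5, and the 4 Sdh genes. No measured value entered this choice. Of the 105 genes, 13 are encoded by the mitochondrial genome and 92 by the nucleus, and these are described apart. The name rule also brought in 4 assembly factors of complex I (Ndufaf1 to Ndufaf4) and 4 genes that share a name and are counted here as no subunits (Atp5s, Atp5sl, Atp5l-ps1 and Cox4nb), and Ndufa4 and Ndufa4l2 are counted here with complex IV.

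The libraries came from epithelium stripped with EDTA from the whole colon of adult mice, in 4 groups. WT mice on water gave 4 libraries, mice labelled as Smad4 knockout on water gave 4, WT mice after 3 d of 2.5% DSS gave 3, and Smad4 knockout mice after the same DSS course gave 3. The study's figure legends give 3 replicates, not 4, for Smad4 knockout on water. Which 3 of the labelled libraries these were is not given in the sources used here. DSS, or dextran sulfate sodium, is a polysaccharide that injures the colonic mucosa when given in drinking water. The knockout (Smad4 KO) carries floxed Smad4 alleles together with Cre that tamoxifen switches on and that is expressed from the villin promoter, so Smad4 is lost in intestinal epithelial cells and not in the other cells that a stripped epithelium can hold. RNA was selected for poly(A) tails before sequencing, and libraries were made from RNA with an integrity number (RIN) above 4. Values are the authors' raw read counts of genes on the mouse build mm9. The labels name no litter, cage or day, so p-values measure the spread between these libraries.

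The electron transport chain passes electrons from NADH (complex I) and succinate (complex II) through complex III to oxygen at complex IV, and the proton gradient that complexes I, III and IV build drives the ATP synthase. Colonocytes are known for relying on this pathway, since they burn butyrate made by gut bacteria. All subunits of complex II are nuclear encoded, and the other complexes mix subunits from both genomes. The 13 mitochondrial genes are read from long transcripts of a small circular genome that cells carry in many copies, and the nuclear genes from separate promoters.

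Total counts ran from 12882827 to 26087231 per library. The Smad4 label was checked first. Smad4 had 122, 159, 135 and 118 CPM (counts of a gene relative to the library total, scaled with TMM factors) in the 4 WT libraries on water, and 158, 37.0, 46.8 and 35.1 in Smad4 KO replicates 1 to 4. After DSS it had 170, 182 and 174 CPM in WT and 43.9, 40.4 and 42.8 in Smad4 KO. The library labelled Smad4 KO water replicate 1 therefore had Smad4 at the level of WT. It is kept under its label, with the counts of respiratory genes called on water given also without it. Of the 11 markers of epithelium none was at 0 throughout, and their summed level ran from 17406 to 28224 CPM, while fibroblast, smooth muscle, endothelial, glial and lymphoid lists each summed to at most 27.5 CPM in any library (1 of 6 endothelial markers was at 0 throughout). The fibroblast sum differed with genotype, from 1.64 to 5.86 CPM in WT and 3.70 to 26.2 in Smad4 KO on water, and from 0.60 to 2.78 in WT and 9.24 to 14.8 in Smad4 KO after DSS. Of the 5 fibroblast markers tested, 2 were called higher in Smad4 KO on water and 0 after DSS, and their part in the results was not tested. Summed myeloid markers ran from 97.3 to 217 CPM. Library names carry letter prefixes (D, Z, MP, MS and ZH) of unstated meaning.

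The mitochondrial genome of mm9 has a near-identical copy on chromosome 1, and it bears on how 8 of the 13 mitochondrial genes can be counted. The stretch chrM:6390-11042 matches chr1:24618374-24623027 on the minus strand over 4654 bases at 99.936% identity. It holds all of mt-Co2, mt-Atp8, mt-Atp6, mt-Co3, mt-Nd3 and mt-Nd4l, 63.6% of mt-Nd4 and 31.3% of mt-Co1, and none of mt-Nd1, mt-Nd2, mt-Nd5, mt-Nd6 or mt-Cytb. Between them are the base changes A6393T in mt-Co1 and T9461C in mt-Nd3, written as the mitochondrial base, its position on the mitochondrial plus strand and the base of the copy, and 1 inserted base after position 9820. The stretch around the change in mt-Nd3 is shown for both places, from the mm9 genome, with the differing base in capitals, to show how little tells them apart. The mitochondrial stretch is chrM:9431-9491 on the plus strand, and the copy chr1:24619926-24619986 on the minus strand.
mt-Nd3, mitochondrial: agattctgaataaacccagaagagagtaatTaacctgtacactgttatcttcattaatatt
mt-Nd3, chromosome 1 copy: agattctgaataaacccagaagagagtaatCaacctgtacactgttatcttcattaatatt
How the authors' counting treated reads that match both places, and whether it used the strand, is not given in the sources used here.

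Mitochondrial genes also overlap each other. The end of mt-Atp8 and the start of mt-Atp6, which encode neighbouring subunits of the membrane part of the ATP synthase, share 43 bases, 21.1% of mt-Atp8. They are shown in capitals within chrM:7907-7989 on the plus strand of mm9, because a read that lies there belongs to both genes.
mt-Atp8 and mt-Atp6: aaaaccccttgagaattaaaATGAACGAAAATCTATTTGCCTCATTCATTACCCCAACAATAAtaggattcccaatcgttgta
The genes mt-Nd5 and mt-Nd6 lie on opposite strands and share 14 bases, mt-Nd4l and mt-Nd4 share 7, and mt-Atp6 and mt-Co3 share 1.

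For the nuclear genes, promoter windows of RefSeq (build GRCm38.p6, from 250 bases before to 50 after the start) were matched for 68 of the 84 nuclear subunit genes and searched on both strands. A palindrome of CGCATGCG with a G before it and a C after it, a site of nuclear respiratory factor 1 (NRF1), which is known as an activator of nuclear respiratory genes, was in 5 of the 68 (7.4%) and in 257 of 17491 protein-coding genes (1.5%). The core CGCATGCG alone, which every palindrome also holds, was in 13.2% against 2.8%, and AAGATGGC, a site of YY1, in 14.7% against 3.6%. The other motifs were CCGGAAGT (ETS factors, 7.4% against 5.7%), GGGCGG (SP1, 41.2% against 49.2%), CCAAT (42.6% against 42.3%) and TATAAA (10.3% against 14.8%). These are matches of letters and not binding. Upstream windows of 2 genes with the palindrome are printed with it in capitals, for Cox6a1, the nuclear gene with the highest level per kilobase of all 92, and for Atp5k, a small subunit of the ATP synthase membrane part. They are chr5:115348959-115349208 and chr5:108434400-108434649 of GRCm38.p6, both on the minus strand.
Cox6a1: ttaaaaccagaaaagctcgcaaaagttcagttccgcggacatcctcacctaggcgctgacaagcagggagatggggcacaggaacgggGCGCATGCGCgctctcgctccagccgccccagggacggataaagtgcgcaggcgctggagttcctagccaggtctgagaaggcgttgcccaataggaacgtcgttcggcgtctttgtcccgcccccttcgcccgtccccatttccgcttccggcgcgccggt
Atp5k: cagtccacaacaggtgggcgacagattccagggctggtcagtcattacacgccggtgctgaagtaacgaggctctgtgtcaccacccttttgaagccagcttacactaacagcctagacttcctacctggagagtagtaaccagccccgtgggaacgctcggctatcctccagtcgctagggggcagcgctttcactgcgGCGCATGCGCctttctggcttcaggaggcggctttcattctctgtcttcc
The palindrome lies 162 bases upstream of the start in Cox6a1 and 50 in Atp5k.

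The 13 mitochondrial genes held between 3.94% and 31.7% of all counts in a library, and 3 libraries stood apart from the other 11. In WT on water the share was 7.86%, 6.15%, 29.8% and 31.7%, and in Smad4 KO on water 4.89%, 7.85%, 4.76% and 20.2%. After DSS it was 4.41%, 6.68% and 4.66% in WT and 4.70%, 3.94% and 5.04% in Smad4 KO. WT water replicates 3 and 4 and Smad4 KO water replicate 4 were thus high, the other libraries were all at 7.86% or less, and within each genotype the water and DSS libraries overlapped. The 95% Wilson interval of the highest share ran from 31.709% to 31.760%, so counting error, the only error it covers, is small beside the differences between libraries. The 92 nuclear genes held a steadier share of the counts outside the 13 genes, from 1.65% in Smad4 KO water replicate 3 to 2.70% in WT water replicate 2. The high libraries carry the prefixes Z (WT replicate 3) and MP (replicate 4 of WT and of Smad4 KO), while the other Z libraries had 4.89% and 7.85%. The part of prefix or RNA quality in the shares was not tested. In these bulk libraries a lower share can also be fewer cells of a type or less RNA per cell, and the 2 cannot be told apart.

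**Figure D1:**
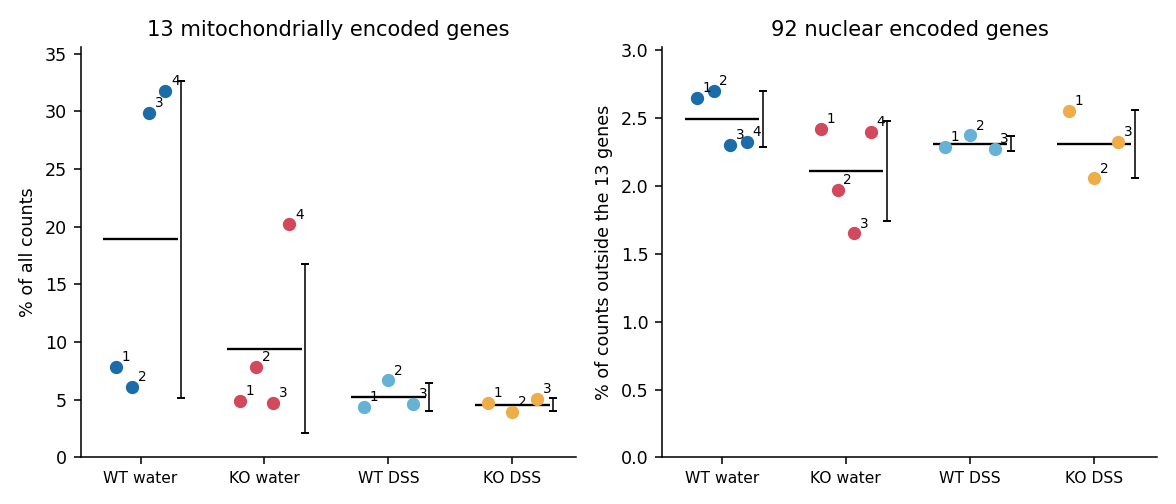
Share of counts on the 13 mitochondrially encoded genes (left, percent of all counts) and on the 92 nuclear encoded genes (right, percent of the counts outside the 13 genes) in 14 libraries. Points are libraries numbered by replicate, horizontal lines are group means and bars are SD. Left, WT water 3 and 4 and KO water 4 lie between 20.2% and 31.7% and all others at 7.86% or less. Right, KO water 2 and 3 are the lowest.

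Among the mitochondrial genes, level fell into 2 ranges. Per kilobase of gene, averaged over the 14 libraries, mt-Co1, the catalytic subunit of complex IV, had 38214 CPM, mt-Cytb, the mitochondrial subunit of complex III, had 16110, and mt-Nd1 of complex I had 13810. The other complex I genes mt-Nd6, mt-Nd4, mt-Nd2 and mt-Nd5 had 5981, 5904, 4838 and 4411. The 6 genes that lie wholly in the stretch copied on chromosome 1 were all lower, from 14.7 CPM per kilobase for mt-Atp8, a small ATP synthase subunit, to 674 for mt-Co2, the subunit of complex IV that takes electrons from cytochrome c. The lowest gene outside the copied stretch, mt-Nd5, was above the highest gene inside it. What part the copy had in these low counts was not tested.

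The annotated genes Gm10222 and Gm10925 inside the copy gathered counts of their own. Gm10222 (chr1:24619243-24619539 in mm9, minus strand) spans the copy of mt-Nd4l base for base, and it had 252 to 3435 counts per library where mt-Nd4l had 108 to 1084. In all 14 libraries Gm10222 was above mt-Nd4l, by a median of 3.22 times. Gm10925 (chr1:24620814-24621627, minus strand) spans the copy of most of mt-Atp8 and nearly all of mt-Atp6, and it had 1074 to 6959 counts where mt-Atp6 had 1039 to 23877. The 6 low genes also kept a less constant proportion to mt-Co1 than the others. From the lowest to the highest library, reads per 1000 reads of mt-Co1 changed between 1.46 times (mt-Nd2) and 2.51 times (mt-Nd6) for the genes not wholly in the copy, and between 3.43 times (mt-Nd3) and 21.3 times (mt-Atp8) for the 6 genes within it. The levels of these 6 genes are therefore uncertain.

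**Figure D2:**
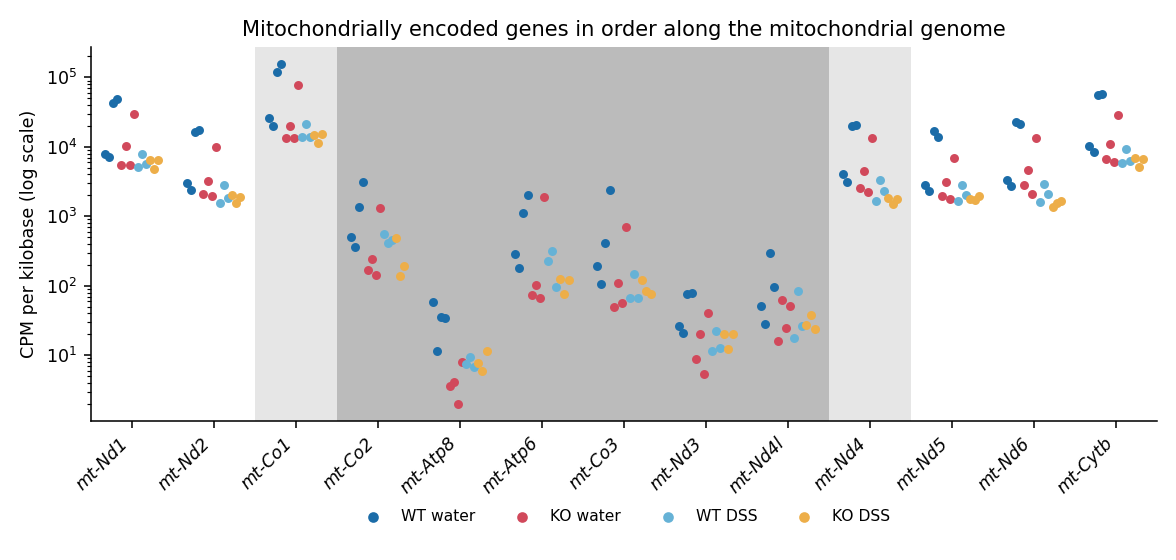
CPM per kilobase (log scale) of the 13 mitochondrially encoded genes, in order along the mitochondrial genome, in 14 libraries. Each point is 1 library, colored by group, dark gray marks the 6 genes wholly within the stretch copied on chromosome 1 and light gray the 2 genes partly within it. The 6 genes in dark gray average 14.7 to 674 CPM per kilobase and the other 7 average 4411 or more.

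The nuclear genes were expressed in all complexes. Over the 36 tested complex I subunits the median gene had 133 CPM per kilobase, with Ndufb9 (392) and Ndufa6 (317), both accessory subunits, at the top. The 4 subunits of complex II had a median of 230, led by the membrane anchors Sdhc (265) and Sdhd (264). The 8 genes of complex III had 382, with the small subunits Uqcrh (743) and Uqcr10 (687) highest. Complex IV had a median of 499.9 over 14 genes and held the highest nuclear genes of all, Cox6a1 (1434) and Cox4i1 (1250). The ATP synthase had 425 over 15 genes, led by its catalytic β subunit Atp5b (956) and by Atp5g3 (768), which encodes the subunit of the rotating ring. The 4 assembly factors of complex I were lower, with a median of 24.3.

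Complex IV has subunits with forms restricted to heart, muscle, lung or testis, and in this epithelium the widespread forms prevailed. The widespread Cox6a1, Cox8a, Cox4i1 and Cox6b1 had 1434, 1179, 1250 and 709 CPM per kilobase. The restricted forms Cox4i2, Cox6a2, Cox7b2 and Cox8b had at most 7, 6, 1 and 4 counts in any library, and Cox8c had 0 in all 14. Ndufa4l2, the paralog of Ndufa4 known from hypoxia, had at most 12 counts. The heart and muscle form Cox7a1 was measurable, at 52.8 CPM per kilobase against 275 for Cox7a2, and the testis form Cox6b2 had 4.79. With these, 8 of the 105 genes did not reach 10 counts in 3 libraries and were not tested, the other 2 being Atp5l-ps1 and a second Ndufb8 gene (ENSMUSG00000091471), so that 97 (13 mitochondrial and 84 nuclear) were tested.

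On water, the question was whether loss of Smad4 went with another level of respiratory genes. In edgeR's quasi-likelihood test over all 14 libraries, with Benjamini-Hochberg adjustment over 15127 genes and a threshold of 0.05, 8 of the 97 genes (8.25%) were called, all lower in Smad4 KO than in WT. Over all genes tested, 8.44% were called, 3.6% lower and 4.83% higher. The share called among the respiratory genes was near that of all genes in either direction, and above it in the lower direction alone (8.25% against 3.6%). At an unadjusted p below 0.05 it was 36 of 97, against 29.3% of all genes. In direction, 88 of 97 had a lower mean in Smad4 KO, 75 of 84 nuclear and 13 of 13 mitochondrial, where 50.5% of all genes were lower. The median log2 fold change was -0.35 for the nuclear genes, -1.37 for the mitochondrial genes and -0.01 for all genes. With library totals in place of TMM the median of all genes shifts by 0.24, the nuclear median was -0.15 with 60 of 84 lower, and 1 gene was called, against 5.38% of all genes. With only the water libraries in the model none of the genes was called by edgeR (28 with an unadjusted p below 0.05, 0.00686% of all genes called), while DESeq2 on all 14 libraries called 25 (17.3% of all genes). With the name prefix as a block, 49 of 84 nuclear genes were lower, at a median of -0.09, and 13 of 13 mitochondrial genes were. That fit compares the genotypes on water only within prefixes Z and MP. Smad4 KO water replicate 3 is alone in prefix MS and so adds nothing to it, while replicate 1, with Smad4 at the WT level, does.

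The called genes were 4 of the ATP synthase (Atp5d, Atp5e and Atp5g1, and mt-Atp8), 2 of complex I (Ndufv3 and Ndufa10), 1 of complex IV (Cox5b) and Atp5sl, which is no ATP synthase subunit. Atp5d, the δ subunit of the central stalk, had 678, 684, 772 and 997 CPM in WT and 529, 309, 335 and 591 in Smad4 KO. The groups did not overlap, and Smad4 KO replicates 2 and 3 were lowest. By edgeR the log2 change from WT was -0.83, with a standard error (SE) of 0.21 and an adjusted p of 0.034. Atp5e, the ε subunit of the same stalk, had 319, 286, 362 and 489 CPM in WT and 229, 131, 103 and 270 in Smad4 KO, again without overlap (log2 change -0.99, SE 0.26, adjusted p = 0.0362 by edgeR). Ndufv3, a subunit of the NADH-binding part of complex I, had 147, 147, 170 and 185 CPM in WT and 115, 78.6, 60.0 and 116 in Smad4 KO. Its groups were apart as well, at a log2 change of -0.81 (SE 0.18, adjusted p = 0.0269 by edgeR).

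Cox5b, a nuclear subunit of complex IV, had 485, 509, 416 and 360 CPM in WT and 353, 255, 122 and 273 in Smad4 KO, and the highest Smad4 KO library lay just under the lowest WT library (log2 change -0.82, SE 0.24, adjusted p = 0.0492 by edgeR). It has 1 near-identical sequence elsewhere in the genome, so its counts can be shared. The largest fitted change was that of mt-Atp8, whose counts were few: 318, 53, 88 and 65 reads in WT and 17, 14, 10 and 31 in Smad4 KO (log2 change -2.96, SE 0.49, adjusted p = 0.0191 by edgeR). It lies wholly in the stretch copied on chromosome 1. The remaining 3, outside the 5 largest, were Atp5sl, Atp5g1 and Ndufa10, with log2 fold changes of -0.79, -0.72 and -0.47 (edgeR adjusted p of 0.0236, 0.0418 and 0.037).

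In the edgeR fit of all 14 libraries the 12 other mitochondrial genes were not called, and DESeq2 also called only mt-Atp8 of the 13. Other settings differed. With the name prefix as a block all 13 were called (13.3% of all genes). Without Smad4 KO water replicate 4 all but mt-Nd4l were called (27.3% of all genes). mt-Co1 had 40077, 30796, 186953 and 237577 CPM in WT and 21009, 30428, 20866 and 119987 in Smad4 KO. The 2 high WT libraries and the high Smad4 KO library were those with the high mitochondrial shares, and the groups overlapped (log2 change -1.37, SE 0.64, adjusted p = 0.165 by edgeR). Between libraries of 1 prefix, with no test, all 13 were lower in Smad4 KO: by a median of 2.66 on the log2 scale between Smad4 KO replicates 1 and 2 and WT replicate 3 (Z), and by 0.92 between Smad4 KO replicate 4 and WT replicate 4 (MP). In those pairs the nuclear genes were lower in 59 and in 39 of 84. The Z comparison includes Smad4 KO replicate 1, whose Smad4 was at the WT level, so it does not compare knockout with WT alone.

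Complex by complex, the nuclear medians on water were all below 0 and complex II had the one nearest to it. The median log2 fold change was -0.39 over 36 complex I subunits (34 lower, 2 called), -0.09 over 4 of complex II (3 lower), -0.26 over 8 of complex III (7 lower), -0.39 over 14 of complex IV (12 lower, 1 called) and -0.34 over 15 of the ATP synthase (13 lower, 3 called). The 9 genes with a higher mean in Smad4 KO were Ndufs1, Ndufab1, Sdha, Uqcrc2, Cox5a, Ndufa4, Atp5a1, Atp5f1 and the assembly factor Ndufaf4, named here after their values were seen. Ndufs1, the largest core subunit of complex I, came nearest to a call, with 121, 125, 105 and 98.1 CPM in WT and 167, 156, 166 and 121 in Smad4 KO (log2 change 0.44, SE 0.14, adjusted p = 0.0579 by edgeR). Groups of 4 without overlap, all of them with Smad4 KO below WT, were found for 14 of 84 nuclear genes (16.7%), against 5.2% of all genes in that direction and 10.4% in either.

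**Figure D3:**
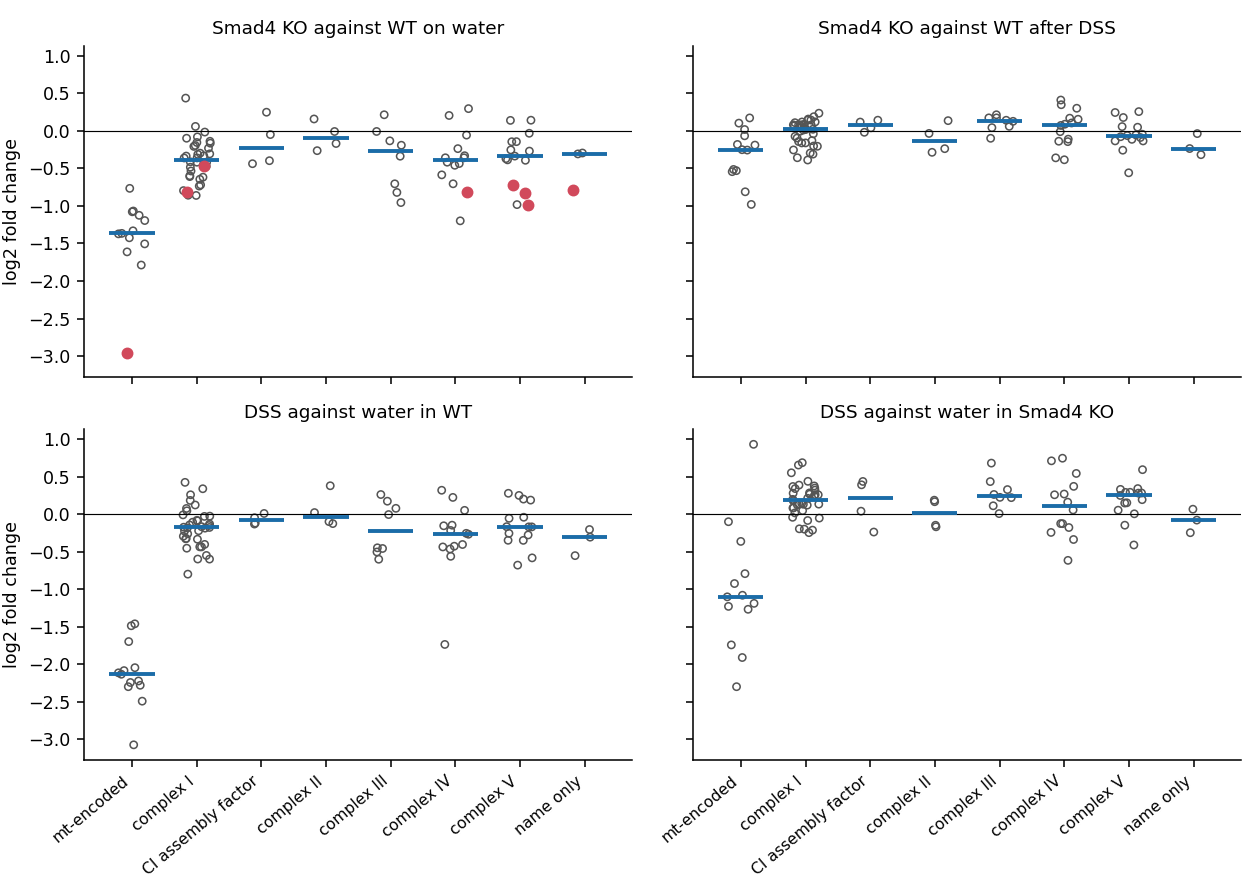
log2 fold change of the 97 tested genes in 4 comparisons, by genome and complex. Each point is 1 gene, filled red where the edgeR adjusted p was below 0.05, and blue lines are medians. All 8 red points lie in the comparison of Smad4 KO with WT on water, below 0, and the mitochondrially encoded genes have the lowest medians in all 4 panels.

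The low nuclear levels on water were found in 2 of the 4 Smad4 KO libraries. Against each gene's mean over all 14 libraries, 81 of 84 nuclear genes were below it in Smad4 KO water replicate 3 (median -0.62 on the log2 scale) and 68 of 84 in replicate 2 (-0.31), while replicates 1 and 4 had 34 and 25 of 84 below (medians 0.02 and 0.18). In WT on water 79 of 84 were above it in replicates 1 and 2, and 50 and 52 in replicates 3 and 4. None of the 97 was called without Smad4 KO water replicate 2, without replicate 3 or without WT water replicate 4, where 23, 25 and 30 had an unadjusted edgeR p below 0.05 and 0.106%, 0.0333% and 0.0265% of all genes were called. Without Smad4 KO water replicate 4, 47 of 97 were called (46 lower), where 27.3% of all genes were. When replicate 1 of the libraries labelled Smad4 KO on water, whose Smad4 was at the WT level, was left out, 12 were called, all lower and 7 of them among the 8 above, where 7.66% of all genes were.

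The deviation in replicate 3 went with transcript length. In that library the 42 nuclear genes with a median annotated transcript under 700 nt had a median deviation of -0.92 and the 23 of 1200 nt or more -0.26 (Spearman's rho of deviation and length 0.71 over 84 genes, which share 1 library and are no independent replicates). Over the 15106 tested genes with an annotated length rho was 0.41 in that library. In WT water replicate 3 the order was the opposite, with 0.20 for the short and -0.20 for the long genes. Of 8 surface colonocyte markers, of which none was at 0 throughout, 6 were lower in Smad4 KO on water and 1 was called, and after DSS 8 were lower and 0 were called. Their summed level was 4440 to 5428 CPM in WT on water and 2748 to 3843 in Smad4 KO on water. Within Smad4 KO on water it was 2748, 2850, 3294 and 3843 in replicates 1 to 4. The part of length or of cell make-up in the differences was not tested.

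**Figure D4:**
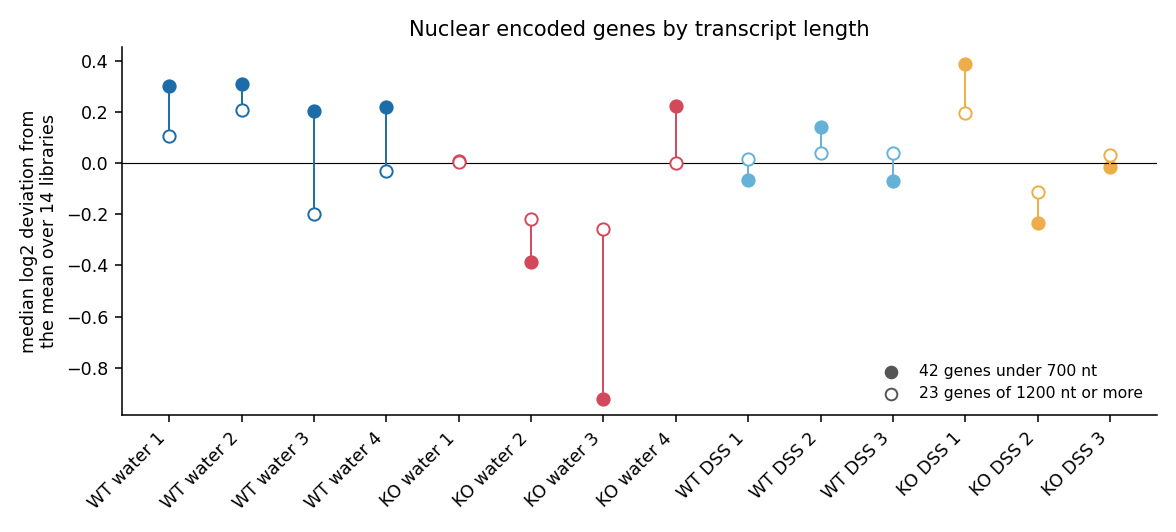
Median log2 deviation of nuclear encoded genes from their mean over 14 libraries, for 42 genes with transcripts under 700 nt (filled) and 23 of 1200 nt or more (open), by library. KO water replicate 3 has the widest gap, -0.92 against -0.26, and in all 4 WT water libraries the short genes lie above the long ones.

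After DSS, no difference between Smad4 KO and WT passed the test in any of the 97 genes by edgeR (0 called, 1 with an unadjusted p below 0.05, and 0 called by DESeq2). Of all genes 0.0132% were called, 4.43% had such an unadjusted p, and 0.324% were called by DESeq2. Of the 84 nuclear genes 39 were lower, against 50.1% of all genes, and their median on the log2 scale was 0.02. Without Smad4 KO DSS replicate 1, 76 of 84 nuclear genes were lower, with a median of -0.12. Of the 13 mitochondrial genes 10 were lower, with a median of -0.25, which changed sign without WT DSS replicate 2. The gene with the low unadjusted p was Atp5d, lower on water too: it had 405, 545 and 517 CPM in WT and 282, 353 and 361 in Smad4 KO. The groups did not overlap, as for 21.7% of all genes in either direction and 11.4% with Smad4 KO lower, but the adjusted p was 0.999 (log2 change -0.56, SE 0.24, edgeR). Among genes with a mean of at least 50 counts, the largest values upward were those of Ndufa4 (0.35), Cox7b (0.30) and Atp5l (0.26), and downward, besides Atp5d, mt-Atp6 (-0.98) and mt-Co2 (-0.81), with edgeR adjusted p of 0.999 each. Over the libraries of prefix D alone (2 WT and 3 Smad4 KO), 43 of 84 nuclear genes and 11 of 13 mitochondrial genes were lower, with a median of -0.31 for the mitochondrial genes.

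In WT, DSS against water gave the largest differences of the mitochondrial genes, and edgeR called none (0 of 97, 19 with an unadjusted p below 0.05). DESeq2 called 8, all lower after DSS: mt-Atp8, mt-Cytb, mt-Nd2, mt-Nd4, mt-Nd5, mt-Nd6, Atp5d and Cox6b2. Of all genes 0.0% were called, 21.0% had an unadjusted p below 0.05, and DESeq2 called 5.51%. All 13 mitochondrial genes were lower after DSS (median on the log2 scale -2.13). mt-Nd6, a complex I subunit and the only one of the 13 on the other strand, had 1742, 1435, 11629 and 11004 CPM on water and 846, 1518 and 1080 after DSS. DSS replicate 2 was above the lowest water library, so the groups overlapped, and the log2 change was -2.49 (SE 0.74, adjusted p = 0.124 by edgeR). mt-Co3 and mt-Co1 of complex IV had -3.07 and -2.30 (standard errors 1.06 and 0.73, edgeR adjusted p of 0.14 and 0.128). The size rested on WT water replicates 3 and 4: among the libraries of prefix D, which hold neither, the median over the 13 was -0.31, with 10 of 13 lower.

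Nuclear genes after DSS in WT had a median of -0.17, with 64 of 84 lower, where 51.4% of all genes were lower. With library totals, which shift the median of all genes by 0.25, it was 0.05, with 35 of 84 lower. Within prefix D it was -0.23 with 78 of 84 lower. Water and DSS did not overlap for 25 of 84 nuclear genes (29.8%), 24 of them lower after DSS, against 24.4% of all genes in either direction and 11.6% lower. The largest upward values were those of Ndufb6 (0.42), Sdha, the catalytic subunit of complex II (0.38), and Ndufs1 (0.34), with edgeR adjusted p of 0.429, 0.254 and 0.21.

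In Smad4 KO, 64 of 84 nuclear genes were higher after DSS than on water, with a median of 0.18, where 53.3% of all genes were lower. This direction was not stable: with the name prefix as a block 56 of 84 were lower (median -0.15), and the median was 0.06 without Smad4 KO DSS replicate 1 and 0.07 without Smad4 KO water replicate 3. All Smad4 KO libraries after DSS have the prefix D and none on water has it, so the prefix block compares them only by way of WT libraries on water. None was called (edgeR, 0 of 97, 8 with an unadjusted p below 0.05, DESeq2 0). Of all genes 0.0661% were called, 8.4% had an unadjusted p below 0.05, and DESeq2 called 0.443%. Cox5b had 353, 255, 122 and 273 CPM on water and 510, 360 and 393 after DSS, without overlap (log2 change 0.75, SE 0.26, adjusted p = 0.481 by edgeR). Cox7b, another small subunit of complex IV, had 0.71 (edgeR adjusted p = 0.469). Of the mitochondrial genes 12 of 13 were lower, with a median of -1.10. Without Smad4 KO water replicate 4, the library with 20.2% mitochondrial counts, 8 of 13 were lower (median -0.19), and with the prefix block 0 of 13 were (median 1.36). The groups of mt-Nd6 and mt-Nd4 did not overlap (4.28% of all genes were apart with DSS lower, 8.88% in either direction). The values were 1448, 2420, 1093 and 6876 CPM on water against 712, 803 and 849 after DSS for mt-Nd6 (log2 change -1.91, SE 0.72, adjusted p = 0.505 by edgeR). The exception was mt-Atp8 at 0.93 (edgeR adjusted p = 0.668), whose counts on water were at most 31.

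The difference between the 2 DSS responses, tested as an interaction, passed the threshold for none of the 97 genes in edgeR (11 with an unadjusted p below 0.05, against 7.5% of all genes, of which 0.00661% were called). DESeq2 called mt-Atp8 alone (adjusted p = 0.0461) and 0.0529% of all genes, and its edgeR value was 3.06 (SE 0.72, adjusted p = 0.643). This comparison and both DSS responses share the water libraries described above. Nuclear genes had a median difference of 0.34, with 70 of 84 higher in the Smad4 KO response, where 50.6% of all genes were lower. With the name prefix as a block it was 0.07 with 49 of 84 higher, and with library totals 0.17 with 60 of 84 higher. After mt-Atp8 the largest upward values were those of mt-Co3 (1.81) and mt-Nd3 (1.60), and the largest downward ones those of Ndufs1 (-0.39), Cox5a (-0.35) and Atp5a1 (-0.27), with edgeR adjusted p between 0.648 and 0.806.

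Within groups the mitochondrial genes varied most. The median within-group SD was 1.05 on the log2 scale over the 13, 0.32 over the 84 nuclear genes and 0.28 over all genes. Among the nuclear genes 2 subunits of complex I had levels that parted libraries of 1 group, and both were chosen after their values were seen. Ndufs5 had 61.2, 60.4, 64.4 and 32.0 CPM in WT and 56.4, 41.5, 8.43 and 19.6 in Smad4 KO on water, and after DSS 16.3, 59.6 and 18.3 in WT and 61.0, 13.7 and 17.1 in Smad4 KO. Each of the 4 groups thus held a library at 56.4 CPM or more and another at 32.0 or less. Ndufa12 had 83.4, 106, 70.5 and 66.7 CPM in WT and 85.2, 32.1, 21.5 and 102 in Smad4 KO on water, 72.5, 64.2 and 58.1 in WT after DSS and 89.5, 32.6 and 74.2 in Smad4 KO after DSS, so 3 libraries were low, all labelled Smad4 KO. Neither gene has a near-identical copy in the genome.

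**Figure D5:**
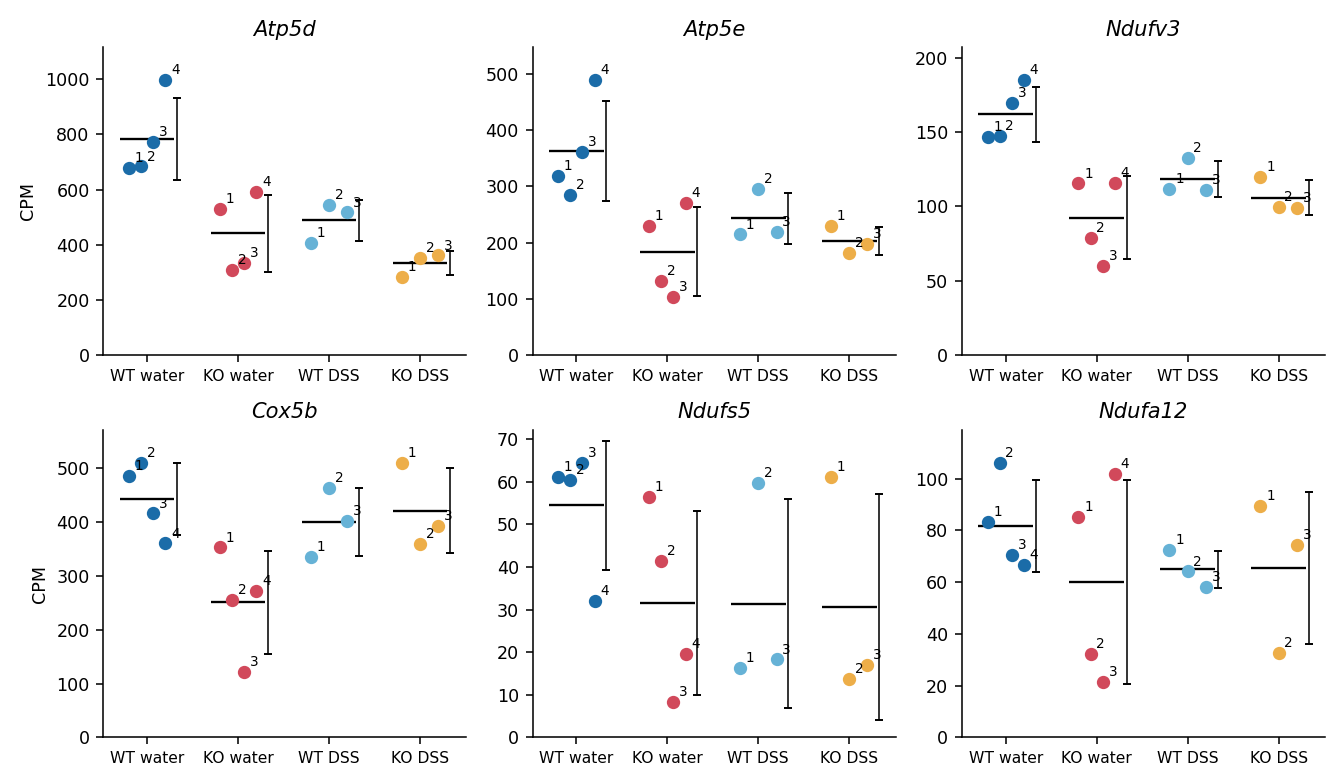
CPM of 4 nuclear genes called lower in Smad4 KO on water (Atp5d, Atp5e, Ndufv3 and Cox5b) and of Ndufs5 and Ndufa12 in 14 libraries. Points are libraries numbered by replicate, lines are means and bars are SD. The 4 called genes show WT water above KO water without overlap, and Ndufs5 shows libraries near 60 CPM beside libraries under 20 CPM in 3 of the 4 groups.

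Other mitochondrial and energy genes, from lists of known function, were counted in the same test. Calls from these lists, here and below, are given for that 1 fit only, with Smad4 KO water replicate 1 included. On water few genes of any kind were called in some other fits. The share was 0.00686% with only the water groups, and 0.106%, 0.0333% and 0.0265% without Smad4 KO water replicate 2, Smad4 KO water replicate 3 and WT water replicate 4. Of all genes 8.44% were called on water (3.6% lower, 4.83% higher), and 50.5% had a lower mean in Smad4 KO. The share called was 6.58% for mitochondrial ribosomal proteins and 5.56% each for the tricarboxylic acid cycle and glycolysis. These are below the 8.44% of all genes in either direction, but every call in them was lower, and they are above the 3.6% called lower. For electron carriers and energy exchange the share called was 22.7%. On water, 64 of 76 mitochondrial ribosomal proteins were lower in Smad4 KO (median -0.25 on the log2 scale) and 5 were called lower, of which Mrpl14, Mrps16 and Mrps26 had the largest changes (-0.77, -0.67 and -0.66, edgeR adjusted p of 0.0325, 0.0409 and 0.0407). Genes of the tricarboxylic acid cycle were lower in 9 of 18 with a median of 0.01, and 1, Idh3b of NAD-dependent isocitrate dehydrogenase, was called lower (-0.40, edgeR adjusted p = 0.0424). Glycolysis had 8 of 18 lower and 1 called, the phosphofructokinase Pfkl (-0.46, edgeR adjusted p = 0.0445). Among 22 electron carriers and energy exchange genes 4 were called lower, with Etfb, Coq4 and the uncoupling protein Ucp2 the largest (-0.63, -0.63 and -0.53, edgeR adjusted p of 0.0456, 0.0382 and 0.0453), and Pdss1, an enzyme of ubiquinone synthesis, was called higher (0.89, edgeR adjusted p = 0.0218).

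Of 17 regulators of mitochondrial biogenesis 7 were lower on water, and 1 was called: Lrpprc, whose product is known to stabilize mitochondrial mRNAs, had 54.9, 65.4, 57.5 and 47.6 CPM in WT and 68.9, 88.3, 91.0 and 75.4 in Smad4 KO (log2 change 0.52, SE 0.13, adjusted p = 0.0331 by edgeR). It was higher in every Smad4 KO library than in any WT library on water, where 10.4% of all genes had groups without overlap in either direction. The share called in this list was 5.88%, against 8.44% of all genes in either direction and 4.83% called higher. Of 27 tested respiratory chain assembly factors 1 (3.7%) was called, Ecsit of complex I (-0.48, edgeR adjusted p = 0.0455). After DSS no gene of these lists was called between genotypes, where 0.0132% of all genes were. Between DSS and water in Smad4 KO, Slc25a4, a carrier that exchanges ADP for ATP across the inner membrane, was called higher. It had 22.3, 21.2, 18.9 and 18.3 CPM on water and 47.4, 33.2 and 38.0 after DSS (log2 change 0.97, SE 0.16, adjusted p = 0.0405 by edgeR). In that comparison 0.0661% of all genes were called, and 0.00661% with the name prefix as a block. All Smad4 KO libraries after DSS have the prefix D and none on water has it, so prefix and DSS cannot be told apart there.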

How the data were processed

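RNA-seq libraries of colon epithelium were grouped by their labels. Per the labels and the study's methods, the authors aligned reads to mm9 with HISAT2 and counted them per gene with featureCounts, and the deposited values are whole-number counts without normalization. Strand and multi-mapping settings are not given in the sources used here. Gene names, positions and median transcript lengths are those of GENCODE M1 (mouse), where 37310 of 37680 genes were found, and 14001 genes had 0 counts throughout. The genes and lists described were chosen with earlier results of these data known.

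The 15127 genes that reached 10 counts in 3 or more of 14 libraries were tested with edgeR 4.0.16 (TMM, estimateDisp, glmQLFit and glmQLFTest, R 4.3.3), all libraries in 1 model of the 4 groups, with Benjamini-Hochberg adjustment over all of them and a threshold of 0.05. Standard errors are the absolute log2 fold change over the root of F. CPM use TMM library sizes, and deviations use log2(CPM + 1). The tests were checked on simulated data. Genomic copies were searched with BLAST 2.17.0 (near-identical: at least 98% identity, for nuclear genes over 80% of the transcript). Intervals are 95% Wilson intervals. Genes named were the 13 mitochondrial genes, the 2 highest per complex, up to 5 called per direction with a mean of at least 50 counts (or the 3 largest where fewer than 3 were called), the tissue-restricted isoforms, and up to 3 called genes per list. Alternatives were DESeq2 1.42.0, other scalings and filters, only the groups compared, blocks of replicate number or name prefix, and each library left out. A covariate of the mitochondrial percent, leaving out the 3 libraries above 20% mitochondrial counts, and the water groups without Smad4 KO replicate 1 were added after the data were seen.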

Additional observations from a re-analysis of the deposited data

Results flagged for a closer look

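Among the 4 libraries of each water group, 49 quantities reported here were searched for 1 library far from the other 3, with Dixon's test, in 98 tests. Chance flags about 1 in 20 of independent tests, but the genes share libraries and are not independent. Ndufs5 and Ndufa12 were also included after their spread was seen, so the flags cannot be weighed against that rate. In all, 9 were flagged. Of these, 5 were Smad4 KO water replicate 4, the library with 20.2% mitochondrial counts, standing above replicates 1 to 3: mt-Atp6 had 1276.5 CPM against 45.2 to 70.9, mt-Co1 119986.7 against 20865.8 to 30428.3, mt-Co2 905.6 against 97.9 to 165, mt-Co3 545.1 against 39.2 to 85.5, and mt-Nd2 10180.9 against 2016.8 to 3334.5. In WT on water replicate 4 stood apart with mt-Co3 at 1901.2 CPM against 84.4 to 327.1, with the complex III gene Uqcrh at 534.7 against 368.8 to 391.2, and with Ndufs5 low at 32.0 against 60.4 to 64.4. In Smad4 KO water replicate 3, Atp5l of the ATP synthase was low at 97.7 CPM against 200.3 to 221.3. Atp5l has 3 near-identical sequences elsewhere in the genome, so its counts can be shared.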

How the results depend on the processing

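The 8 respiratory genes called lower in Smad4 KO on water depended on the processing, and the causes were not tested. The count was 1 with library totals, 25 with DESeq2 (24 lower; 17.3% of all genes called), 25 with the name prefix as a block (21 lower; 13.3%), and 0 with only the groups compared (28 at an unadjusted p below 0.05; 0.00686%). All 13 mitochondrial genes were among the 25 of the prefix block. The count was 8 with DESeq2's size factors in edgeR (8.64% of all genes) and 12 without a filter (5.93%). It was 7 with mitochondrial genes left out of the scaling and of the test (8.6%). Of the alternatives added after the data were seen, the mitochondrial percent as a covariate gave 0 of the 84 nuclear genes (25 unadjusted), where 0.0529% of all genes were called. Mitochondrial genes were not counted there, and the main fit called 7 of the 84. The water groups without Smad4 KO replicate 1 gave 0 (26 unadjusted), where 0.0904% of all genes were called. Leaving out the 3 libraries over 20% mitochondrial, again counted over the 84 nuclear genes alone, gave 28, all lower (15.9% of all genes). Leaving out 1 library at a time gave 0 to 47: 0 without WT water replicate 4, Smad4 KO water replicate 2 or Smad4 KO water replicate 3, 47 without Smad4 KO water replicate 4, 3 without WT water replicate 3 or Smad4 KO DSS replicate 3, 4 without WT DSS replicate 1, WT DSS replicate 3 or Smad4 KO DSS replicate 2, and 5 without WT DSS replicate 2. In the fits that gave 3 to 5, all genes had 2.88% to 4.47% called. In these fits 12 to 13 of 13 mitochondrial and 68 to 76 of 84 nuclear genes were lower.

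With the replicate number as a block the count on water was 31 (30 lower), where 19.7% of all genes were called. The numbers do not pair the samples: of 19 same-numbered pairs 2 had correlated deviations over 0.1 (-0.12 to 0.448), and 4 of 14 libraries correlated best with their own number. For DSS against water in WT, DESeq2 called 8 (5.51% of all genes), no filter gave 2 (0.583%) and leaving out 1 library gave 0 to 6, the 6 without Smad4 KO water replicate 4 (3.57%). The difference of the DSS responses gave 1 with DESeq2. Smad4 KO against WT after DSS and DSS against water in Smad4 KO gave 0 under each alternative run. None of the 8 genes called on water changed sign under the alternatives run. Medians that were not called did: for DSS against water in Smad4 KO the prefix block turned both sets (mitochondrial -1.10 to 1.36, nuclear 0.18 to -0.15), for DSS in WT library totals turned the nuclear median (-0.17 to 0.05), and after DSS the nuclear median between genotypes (0.02) was -0.12 without Smad4 KO DSS replicate 1, and just below 0 with the prefix block, in prefix D alone or without WT DSS replicate 3, while the mitochondrial one (-0.25) was 0.06 without WT DSS replicate 2. Depth limits mt-Atp8 most, with 10 to 318 reads.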
